A study of Mus musculus with 2 samples.

Results

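The 48 genes described here encode the secreted Wnt proteins, their receptors and co-receptors, the secreted proteins that strengthen or block the signal, and the 2 Axin scaffolds. They were chosen by gene symbol from the 20807 autosomal protein-coding genes of the GENCODE annotation of the mouse GRCm38.p6 (mm10) genome. The set holds 19 Wnt ligands, 10 Frizzled receptors (Fzd), the 2 co-receptors Lrp5 and Lrp6, 4 R-spondins (Rspo), the 3 R-spondin receptors Lgr4, Lgr5 and Lgr6, 4 secreted Frizzled-related proteins (Sfrp), 4 Dickkopf proteins (Dkk) and 2 Axin genes. The sequenced material was genomic DNA of E14, an established line of mouse embryonic stem cells (mESCs), grown on gelatin in serum with the cytokine LIF. There was 1 condition and 2 replicates, which the study describes as different passages of the same line, so no treated and untreated cells were compared and every contrast below lies within the genome.

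Wnt proteins are secreted, lipid-modified ligands that bind a Frizzled receptor together with Lrp5 or Lrp6 and so keep β-catenin from being degraded by a complex built on Axin. R-spondins acting through Lgr4, Lgr5 or Lgr6 raise the number of Frizzled receptors at the cell surface, whereas Sfrp proteins bind Wnts and Dkk proteins bind the Lrp co-receptors. In mESCs the pathway is known for its part in self-renewal and in the choice of germ layer as cells leave pluripotency. Methylcytosine (mC) at CpG sites is oxidised by TET enzymes to hydroxymethylcytosine (hmC), and promoters dense in CpG sites are usually free of both.

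SCoTCH-seq reads both strands of 1 DNA molecule, so each call gives the state of a whole CpG site. With C, M and H for cytosine, mC and hmC, the states are CC (unmodified), MM (methylated on both strands), MC/CM (methylated on 1 strand), HC/CH (hmC opposite cytosine), HM/MH (hmC opposite mC) and HH. Levels are means over sites of the percentage of calls in a state, and only sites with at least 5 calls were deposited. Promoter means 1 kb either side of the annotated gene start, and body means the gene span beyond its first 1 kb.

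The 48 genes and the 5 kb upstream of each held 28700 CpG sites of the reference genome, and no site belonged to more than 1 of the genes. In replicate 1, 18258 of these sites (63.6%) were read with 178949 calls. Replicate 2 was shallower, with 6559 sites (22.9%) and 41173 calls. Promoters were read less completely than bodies: 33.9% of 5336 promoter sites in replicate 1 and 10.5% in replicate 2, against 70.2% and 25.4% of 21102 body sites. A promoter therefore rested on 11 to 72 sites in replicate 1 but on 1 to 28 in replicate 2, and 42 promoters with at least 5 sites in both replicates and 40 bodies with at least 20 were compared. Over all sites of the genome the mean depth was 10.5 calls per site in replicate 1 and 6.36 in replicate 2. Promoters of embryonic stem cell markers were unmethylated by the rule used below in 6 of the 7 compared, the exception being Esrrb, and in 1 of 2 fibroblast markers, Thy1, beside 55.1% of promoters over all genes. Tet1, the other stem cell marker, was not compared. Its CC level was 9.43% over 12 sites in replicate 1 and 23.8% over 3 in replicate 2. The fibroblast markers Col1a2, Col3a1, Dcn and Pdgfrb also had under 5 sites in replicate 2. With so few markers, the share of 55.1% over all genes, and a promoter state that does not by itself show expression, the markers are a loose check of the label.

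4 promoter segments show the range of states among these genes, each the best covered 250 bp window of its promoter outside untranslated regions. Dkk4 and Wnt8b are the genes with the most methylated promoters, and Fzd5 and Axin1 (at its annotated start) stand for the unmethylated ones. Each sequence is given 5′ to 3′ on the strand of the gene, with the CpG sites read in at least 1 replicate in capitals.
Dkk4 (GRCm38.p6, chr8:22624743-22624992, plus strand, intron, 700 to 949 bp after the start): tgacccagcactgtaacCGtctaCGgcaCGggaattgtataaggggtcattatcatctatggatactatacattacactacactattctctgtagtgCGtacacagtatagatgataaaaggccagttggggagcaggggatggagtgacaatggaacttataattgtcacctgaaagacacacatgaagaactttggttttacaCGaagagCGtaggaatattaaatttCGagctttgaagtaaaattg
Wnt8b (GRCm38.p6, chr19:44494072-44494321, plus strand, intron, 600 to 849 bp after the start): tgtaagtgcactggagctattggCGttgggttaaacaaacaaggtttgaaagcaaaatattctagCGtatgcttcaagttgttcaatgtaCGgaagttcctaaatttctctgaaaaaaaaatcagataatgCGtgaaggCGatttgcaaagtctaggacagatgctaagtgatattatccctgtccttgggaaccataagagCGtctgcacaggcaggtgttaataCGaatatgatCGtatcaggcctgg
Fzd5 (GRCm38.p6, chr1:64738101-64738350, minus strand, upstream of the gene, from -599 to -350 bp of the start): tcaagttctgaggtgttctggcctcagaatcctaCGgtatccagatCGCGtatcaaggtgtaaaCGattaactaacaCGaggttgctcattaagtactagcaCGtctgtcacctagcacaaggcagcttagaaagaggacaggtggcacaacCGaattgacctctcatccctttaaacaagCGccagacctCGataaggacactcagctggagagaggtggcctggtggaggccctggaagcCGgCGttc
Axin1 (GRCm38.p6, chr17:26138288-26138537, plus strand, upstream of the gene, from -400 to -151 bp of the start): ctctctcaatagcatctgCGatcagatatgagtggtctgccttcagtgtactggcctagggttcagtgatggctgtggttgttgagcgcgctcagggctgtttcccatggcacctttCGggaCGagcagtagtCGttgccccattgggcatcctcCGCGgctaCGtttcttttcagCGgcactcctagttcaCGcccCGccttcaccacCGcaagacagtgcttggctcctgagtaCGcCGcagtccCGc

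The 7 CpG sites of the Dkk4 segment were at 81.1% MM in replicate 1, and the 3 of them read in replicate 2 at 68.3%. In the Wnt8b segment MM was 56.2% over 8 sites and 68.3% over 3. The Fzd5 segment was at 100% CC over its 11 sites in replicate 1 and at 98.2% over the same number in replicate 2, and the Axin1 segment at 99.3% and 97.5%. The 4 segments thus run from mostly methylated to almost wholly unmodified.

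Most promoters of the pathway were unmethylated. A promoter was called unmethylated where its CC level was at least 80% in both replicates, which 24 of the 42 promoters compared met, against 55.1% of 14907 promoters over all genes. By this rule the share among the Wnt pathway genes was close to that of the genome, and their median CC level (91.3% in replicate 1 and 85.4% in replicate 2) lay near the medians over all genes (89.2% and 85.0%). Another 8 promoters passed 80% in 1 replicate only, which was not counted over all genes. In replicate 1 alone, where all 48 promoters could be read, 37 reached 80%, beside 56.3% of 18879 promoters over all genes, a higher share than over all genes. In replicate 2 alone it was 25 of 42, beside 57.6%. Over the sites read in both replicates only, 22 of 38 promoters met the rule, beside 54.4% over all genes: Fzd1, Fzd6, Wnt3 and Wnt11 were no longer called, and Lgr6 and Wnt10b were added.

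Among the ligands, 8 of 18 Wnt promoters were unmethylated in both replicates, beside 55.1% over all genes, those of Wnt2b, Wnt3, Wnt3a, Wnt6, Wnt7a, Wnt7b, Wnt9a and Wnt11. Wnt3, a ligand needed for mesoderm formation in the embryo, had a promoter CC level of 82.6% in replicate 1 and 85.9% in replicate 2, close to the threshold. Wnt6 was nearly free of modification at 96.5% and 97.8%. Of the 10 promoters below 80% CC in both replicates 7 were Wnt genes, which made up 18 of the 42 compared. The share of all genes below 80% in both was not counted. The median Wnt promoter was at 82.4% and 80.4% CC, against 89.2% and 85.0% over all genes.

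Wnt8b, a ligand known from the developing forebrain, had the most methylated ligand promoter, with CC at 19.3% in replicate 1 and 7.62% in replicate 2 and MM at 52.6% and 63.1%. Wnt2, a ligand of lung and placental development, was intermediate, with CC at 61.8% and 41.0% over 16 and 7 sites. Wnt1, a ligand of the midbrain, stood at 71.8% over 46 sites in replicate 1 and at 36.9% over 8 sites in replicate 2. Wnt8b was thus low in both replicates, while the level of Wnt1 was not settled by them.

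The other ligand promoters below the threshold were less modified than that of Wnt8b. Wnt5a, which signals largely without β-catenin, was at 63.0% and 63.6% CC. Wnt8a, a ligand of the early embryo, was at 75.4% and 75.4%, and Wnt9b, needed for kidney tubule formation, at 78.1% and 52.1%. Wnt10a, a ligand of tooth and skin appendages, was at 66.3% and 73.7%. For Wnt5a the level depends on which start is taken: over the starts of all its protein-coding transcripts it was 83.7% in replicate 1 and 73.8% in replicate 2. Wnt5b, Wnt10b and Wnt16 were above 80% in 1 replicate only, and Wnt4 had a single site in replicate 2.

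The Frizzled receptors had the least modified promoters of the larger families. Of the 10, 9 were unmethylated in both replicates, beside 55.1% over all genes, with a family median of 98.1% CC in replicate 1 and 95.8% in replicate 2, against 89.2% and 85.0%. A difference of either family from all genes was not tested. Fzd7, a receptor highly expressed in pluripotent cells, was at 100% CC over 52 sites in replicate 1 and at 100% over 15 sites in replicate 2. Fzd2, Fzd4 and Fzd10 were likewise above 98% in both. Fzd1 was at 93.0% in replicate 1 and on the threshold, at 80%, in replicate 2. The exception was Fzd3, with 90.1% and 59.2%. The start of Fzd4 lies within 2 kb of that of another gene, Tmem135, so their promoters overlap.

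Lrp6, 1 of the co-receptors, was unmethylated at 98.5% and 98.8% CC. Lrp5 was at 94.7% over 42 sites in replicate 1 and at 68.0% over 5 sites in replicate 2. Of the R-spondins and their receptors few promoters could be compared. Lgr4, Lgr5, Rspo1 and Rspo3 had under 5 sites in replicate 2 and in replicate 1 were at 99.0%, 91.9%, 91.0% and 86.5% CC. Rspo2 was unmethylated, at 89.5% and 96.5%, and Lgr6 was above the threshold in replicate 1 only, at 96.0% and 68.1%. Rspo4 was partly modified, at 57.6% and 36.2% CC, and carried 12.4% and 6.06% HC/CH.

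The antagonists were divided. Sfrp1 (98.9% and 97.7% CC) and Sfrp2 (90.1% and 90.0%) were unmethylated, as were Dkk1 (92.3% and 88.6%) and Dkk2 (85.5% and 94.8%). Sfrp4 (81.3% and 77.7%) and Sfrp5 (88.4% and 71.9%) passed 80% in replicate 1 only. Dkk3, a divergent member of its family, was at 76.9% and 69.0% CC. Dkk4 was at 22.7% in replicate 1 and 7.22% in replicate 2, with MM at 53.4% and 66.1%. Dkk4 and Wnt8b were the only promoters called methylated (MM at least 50% in both replicates), 2 of 42 beside 12.4% of promoters over all genes. Over the sites read in both replicates only Dkk4 was called (1 of 38, beside 12.4%). With promoters of 500 bp either side 0 of the 26 compared were called, beside 7.04%. Wnt8b could not be compared there: of its 7 sites in replicate 2, 3 lay 600 to 849 bp after the start, which left under 5. Axin1, the constitutive scaffold, was unmethylated at 95.5% and 93.0% around its annotated start, but at 75.1% and 72.1% over the starts of all its protein-coding transcripts, where it was no longer called. Fzd6 also lost the call over all starts. Axin2, a scaffold that is itself a target of the pathway, was at 81.3% over 30 sites in replicate 1 and at 29.2% over only 4 sites in replicate 2, which was not compared.

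**Figure D1:**
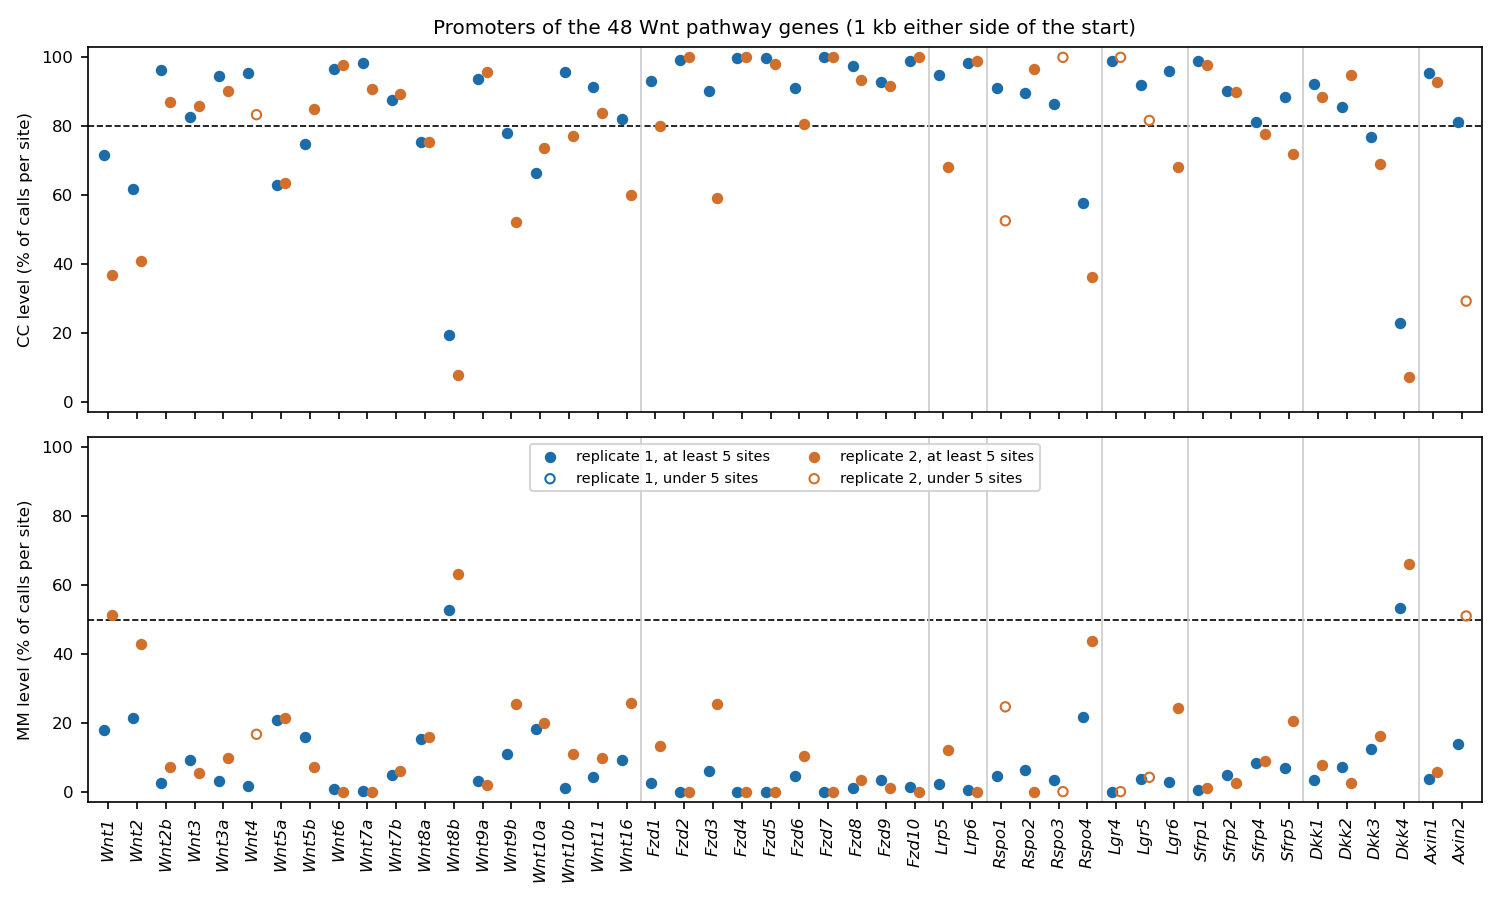
CC level (upper panel) and MM level (lower panel) of each promoter, as the mean percentage of calls per site on the vertical axis, with 1 blue and 1 orange point per gene for the replicates. Open points rest on under 5 sites and dashed lines mark 80% CC and 50% MM. The Frizzled genes crowd the top of the upper panel, while Dkk4 and Wnt8b stand alone above the line in the lower one in both replicates.

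CpG density went along with the promoter state. The observed to expected ratio of CpG sites in the 42 promoters correlated with their CC level (Spearman's rho 0.627 in replicate 1 and 0.614 in replicate 2, across genes, which share the libraries and are not replicates). Over all 14907 promoters rho was 0.737 and 0.681. The promoters of the Wnt pathway were also denser than most, with a median of 111.5 CpG sites against 77.0. Coverage differed with density as well, and its part in these levels was not tested.

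Around the start the mean CC level was above that of all genes, over the genes with at least 2 sites read in a bin, a difference that was not tested. In the 500 bp after the start it was 93.3% over 41 pathway genes in replicate 1 and 91.3% over 25 in replicate 2, against 75.4% over 17007 and 78.1% over 10433 of all genes. From 2000 to 2499 bp after the start it was 48.9% over 44 genes and 40.6% over 22, against 31.6% over 15288 and 29.7% over 7794. On the other side, from 5 kb to 1 kb upstream, the median gene of the set was at 34.7% and 30.8% CC, against 23.4% and 19.0% over all genes, and 30 of 48 lay above the median of all genes in both replicates while 14 lay below it in both. How many of all genes lay above or below in both replicates was not counted. HC/CH followed the opposite course, with a minimum of 1.29% and 1.67% in the first 500 bp after the start.

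**Figure D2:**
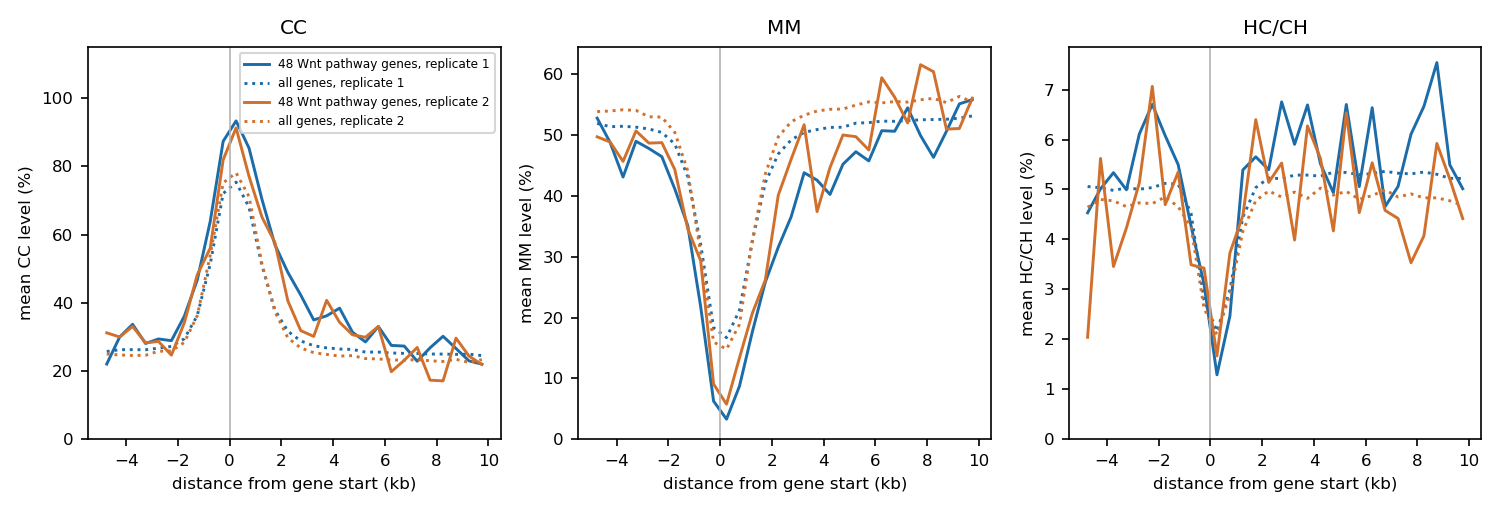
Mean level of CC, MM and HC/CH in 3 panels (vertical axes, % of calls per site) in 500-bp bins from 5 kb upstream to 10 kb downstream of the gene start (horizontal axis, kb), for the pathway genes (solid lines) and all genes (dotted lines) in each replicate. A bin averages the genes with at least 2 sites read in it, 36 to 48 pathway genes in replicate 1 and 13 to 33 in replicate 2, and 14116 to 17070 and 6633 to 10927 of all genes. The CC peak of the pathway genes is higher than that of all genes, and HC/CH dips at the start in both sets.

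5 genes had an unmethylated stretch of at least 5 kb around the start in both replicates, measured outward in 500-bp bins while at least 50% of the pooled calls were CC: Fzd5, Fzd7, Fzd8, Wnt5a and Wnt11. That is 5 of 48 beside 4.76% of 19669 genes, and each replicate taken alone gave 8 (beside 7.89% over all genes in replicate 1 and 8.69% in replicate 2). Fzd5, a receptor of the eye and placenta, had the longest stretch in replicate 1, reaching 2000 bp upstream and 8000 bp downstream, and 2000 and 5000 bp in replicate 2. Fzd7 reached 2000 and 6500 bp in replicate 1 and 1500 and 6500 bp in replicate 2. For Fzd8 the reach was 2000 and 4500 bp in replicate 1 and 1500 and 4500 bp in replicate 2. These receptor genes have few exons, 2 in Fzd5 and 1 each in Fzd7 and Fzd8.

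Wnt5a had the most one-sided stretch of the called genes, 500 bp upstream and 8000 bp downstream in replicate 1 and 500 and 7500 bp in replicate 2. Wnt11, a ligand of cell movement in the gastrula, reached 1000 and 5000 bp in both replicates. Wnt3 was arranged the other way, with 4000 bp upstream and 500 bp downstream in replicate 1 and 3500 and 500 bp in replicate 2, which did not reach 5 kb. The median stretch of the 48 genes was 3.25 kb in replicate 1 and 2.0 kb in replicate 2, against 2.0 and 1.5 kb over all genes. When 70% CC was asked for, the stretches of Fzd5, Fzd7 and Fzd8 still passed 5 kb and those of Wnt5a and Wnt11 did not, 3 of 48 beside 1.98% over all genes.

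**Figure D3:**
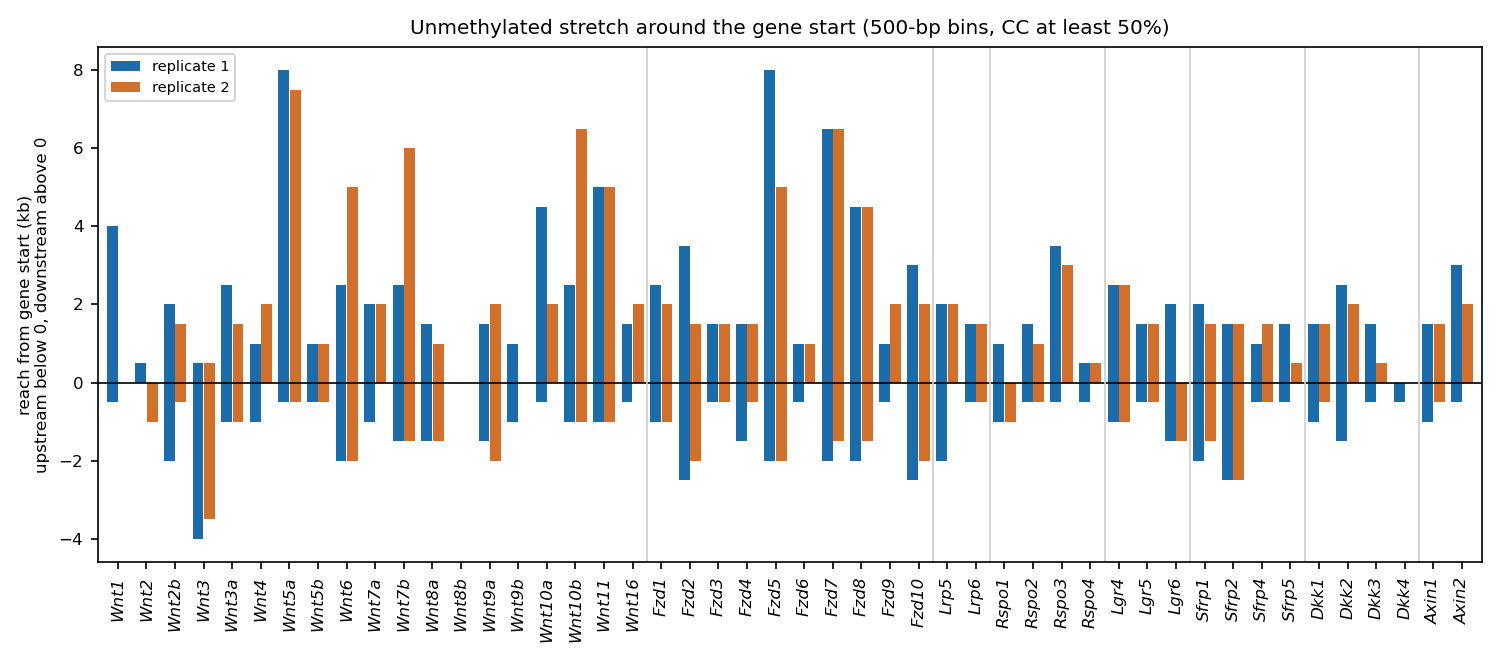
Reach of the unmethylated stretch from each gene start (vertical axis, kb, upstream below 0 and downstream above 0), with 1 bar per gene and replicate. The bars of Fzd5, Fzd7, Wnt5a and Wnt11 extend mostly downstream, and that of Wnt3 extends upstream.

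Gene bodies divided the set further. The bodies of 8 genes were at 50% CC or more in both replicates, namely Wnt1, Wnt5a, Wnt6, Wnt10a, Wnt10b, Fzd1, Fzd5 and Fzd8. This is 8 of 40 beside 5.89% of 14596 bodies over all genes, by a threshold that was chosen after these values had been seen. Wnt1 (3981 bp), Fzd1 (4197 bp), Fzd8 (5974 bp), Fzd5 (7194 bp) and Wnt10b (7439 bp) are short, whereas Wnt10a, Wnt6 and Wnt5a span 12664 to 22699 bp. A short body can lie largely in the unmethylated stretch around the start. In replicate 1 that stretch reached 4000 bp downstream in Wnt1 and 8000 bp in Fzd5, past the gene end, but in replicate 2 it was 0 bp in Wnt1. The share over all genes was not matched for length. Wnt1 had 91.8% CC in its body in replicate 1 and 84.9% in replicate 2, higher than at its own promoter in each. Wnt10b, a ligand that holds back fat cell formation, was at 80.7% and 86.3%, Wnt10a at 74.2% and 73.4% and Wnt6 at 69.0% and 57.8%. Wnt10b and Wnt1 lie 11706 bp apart on chromosome 15, and Wnt6 and Wnt10a 6193 bp apart on chromosome 1. The other neighbouring pairs of the set, Wnt3a with Wnt9a (16175 bp) and Wnt9b with Wnt3 (24328 bp), had mean body CC levels of 14.3% to 30.3%.

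Over the 40 bodies the median CC level was 27.7% in replicate 1 and 22.2% in replicate 2, against 21.3% and 17.2% over all genes, and 24 bodies lay above that median in both replicates and 12 below it. The share of all genes on either side in both replicates was not counted. CC levels were ordered alike in the replicates (Spearman's rho 0.945 across the 40 genes). For body HC/CH over the same genes rho was lower, at 0.661. In exons beyond the first 1 kb, which entered with at least 5 sites, the median was 41.4% and 31.3%, against 20.5% and 15.7% over all genes. Frizzled exons were at 76.3% and 75.9%, and Wnt exons at 49.8% and 32.9%. Introns of the set, which entered with at least 20 sites, were at 24.3% and 20.7%, against 20.3% and 16.4% over all genes. The exon and intron medians cover different genes, since Fzd1, Fzd2, Fzd5, Fzd7, Fzd8, Fzd9 and Fzd10 had no intron sites there. A difference between exons and introns was not tested.

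The level of HC/CH in bodies was that of an average gene. The median body had 5.19% HC/CH in replicate 1 and 4.6% in replicate 2 (mean 4.89% ± 0.415, SD of the 2 medians), against 5.20% and 4.33% over all genes, with 15 bodies above and 15 below the median of all genes in both replicates. For all genes these 2 counts were not made. Each body was then compared with the pooled bodies of all other genes, where 4.6% of calls in replicate 1 and 4.12% in replicate 2 were HC/CH, by a two-sided Fisher's exact test with Benjamini-Hochberg adjustment over all genes, required in both replicates. HC/CH was higher than in the other genes in 4 of 40 bodies, beside 15.7% over all genes, and lower in 4 of 40, beside 10.8%. Replicate 1 alone, in which all 48 bodies could be compared, gave 18 higher, beside 32.8% over all genes, and 8 lower, beside 21.0%. Replicate 2 alone gave 6 of 40 higher, beside 18.2%, and 4 lower, beside 12.6%. These p-values cover counting error only, since neighbouring sites on 1 molecule are not independent.

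The 4 bodies with more HC/CH were those of Axin2, Lgr4, Rspo1 and Wnt3. Over the sites read in both replicates only, Axin2 and Lgr4 kept the call, Rspo1 and Wnt3 lost it, and Lrp6 and Sfrp2 gained it. With bodies from 5 kb after the start Rspo1 was no longer called. In Axin2, HC/CH stood at 6.71% in replicate 1 and at 7.55% in replicate 2, a mean of 7.13% ± 0.591 (SD, n = 2). Of 2883 calls in replicate 1, 6.69% were HC/CH (exact 95% interval 5.81% to 7.67%), and of 581 in replicate 2, 7.75% (5.71% to 10.2%). Axin2 thus lay above the pooled value of the other genes by 2.09 and 3.63 percentage points (Fisher's exact test, adjusted p = 2.15e-06 and 0.000532).

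Lgr4, the R-spondin receptor with the widest expression, was at 7.09% and 6.37% HC/CH (6.73% ± 0.510, SD, n = 2). Over 8333 and 2116 calls its excess was 1.95 and 2.17 percentage points (Fisher's exact test, adjusted p = 1.33e-14 and 3.71e-05). Wnt3 was at 6.34% and 7.26% (6.80% ± 0.652), an excess of 1.48 and 2.96 percentage points over 4504 and 1130 calls (Fisher's exact test, adjusted p = 2.00e-05 and 5.04e-05).

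Rspo1, a secreted protein needed for ovary development, was less steady. Its body was at 5.81% HC/CH in replicate 1 and at 10.8% in replicate 2, where it rested on 337 calls. The excess was 1.31 and 7.45 percentage points (Fisher's exact test, adjusted p = 0.0198 and 2.07e-07), so both replicates placed Rspo1 above the other genes but not at the same level. Sfrp2 (6.13% and 7.68%) and Wnt2b (6.0% and 9.93%) also ranked among the 5 highest bodies by their lower replicate without passing the test in both.

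For each of these 4 bodies 1 window of 200 bp is shown, that with the highest HC/CH level in its lower replicate. Only windows outside untranslated regions with at least 4 sites read in each replicate entered. The windows were picked for their values, so the levels describe them and are no test. Capitals again mark the CpG sites read in at least 1 replicate.
Axin2 (GRCm38.p6, chr11:108949150-108949349, plus strand, exon and intron): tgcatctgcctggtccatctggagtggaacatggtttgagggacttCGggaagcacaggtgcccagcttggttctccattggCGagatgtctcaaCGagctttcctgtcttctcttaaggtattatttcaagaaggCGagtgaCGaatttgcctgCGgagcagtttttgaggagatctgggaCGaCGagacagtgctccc
Lgr4 (GRCm38.p6, chr2:109996698-109996897, plus strand, exon and intron): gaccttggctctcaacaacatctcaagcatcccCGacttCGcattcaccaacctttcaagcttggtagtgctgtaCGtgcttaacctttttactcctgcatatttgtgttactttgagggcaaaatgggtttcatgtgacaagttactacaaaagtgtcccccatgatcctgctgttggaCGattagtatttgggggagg
Rspo1 (GRCm38.p6, chr4:124988581-124988780, plus strand, intron): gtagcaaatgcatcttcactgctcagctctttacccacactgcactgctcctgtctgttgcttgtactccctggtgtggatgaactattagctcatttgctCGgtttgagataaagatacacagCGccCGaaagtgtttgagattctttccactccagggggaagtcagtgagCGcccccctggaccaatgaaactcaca
Wnt3 (GRCm38.p6, chr11:103808801-103809000, plus strand, intron): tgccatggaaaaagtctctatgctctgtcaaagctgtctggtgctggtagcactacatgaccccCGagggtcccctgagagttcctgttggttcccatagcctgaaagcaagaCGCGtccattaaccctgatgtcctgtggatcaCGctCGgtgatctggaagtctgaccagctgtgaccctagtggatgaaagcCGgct

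The Wnt3 window was at 18.3% HC/CH in replicate 1 and 30.4% in replicate 2, from 7 of 46 and 8 of 27 calls. In the Lgr4 window the levels were 17.5% and 18.8%, from 7 of 33 and 5 of 28 calls. The Axin2 window was at 11.3% and 13.0%, from 3 of 34 and 6 of 48 calls. The Rspo1 window was at 8.33% and 7.74%, from 2 of 30 and 2 of 24 calls, and in replicate 2 lay below the whole Rspo1 body (10.8%). Few calls stand behind each of these windows, and MM was the most frequent state in those of Lgr4 and Rspo1 in both replicates.

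The 4 bodies with less HC/CH were those of Rspo2, Rspo3, Dkk2 and Fzd8. Over the sites read in both replicates only, Rspo2 and Rspo3 kept the call and Dkk2 and Fzd8 lost it. With bodies from 5 kb after the start Fzd8 was no longer called. Fzd8 spans 5974 bp, so little of it lay there, and it may not have been among the 34 bodies compared. Rspo2, which acts in limb and lung development, was at 2.67% in replicate 1 and 1.11% in replicate 2 (1.89% ± 1.10, SD, n = 2), a difference of -2.19 and -3.02 percentage points from the other genes (Fisher's exact test, adjusted p = 4.91e-18 and 3.45e-08). Rspo3, which acts in blood vessel and placental development, was at 3.29% and 1.70% (Fisher's exact test, adjusted p = 1.46e-07 and 0.000701). Dkk2 was at 2.84% and 2.46% (Fisher's exact test, adjusted p = 1.86e-14 and 0.0106). Rspo4, the remaining R-spondin beside Rspo1, passed in neither direction, at 5.37% and 2.97% (Fisher's exact test, adjusted p = 0.0851 and 0.452).

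Fzd8 differed from those 3 in its other states. Its body was at 93.5% CC in replicate 1 and 95.4% in replicate 2, whereas the bodies of Rspo2, Rspo3 and Dkk2 lay between 12.7% and 22.8%. HC/CH in Fzd8 was 0.503% in replicate 1 and was not read in replicate 2, where 0 of 147 calls allow a share of up to 2.48% (exact 95% interval). The difference from the other genes had adjusted p = 3.79e-09 and 0.0212 by Fisher's exact test. Fzd5, at 93.7% and 85.3% CC, was likewise low in HC/CH, at 0.752% and 1.06%, but did not pass the test in both replicates.

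**Figure D4:**
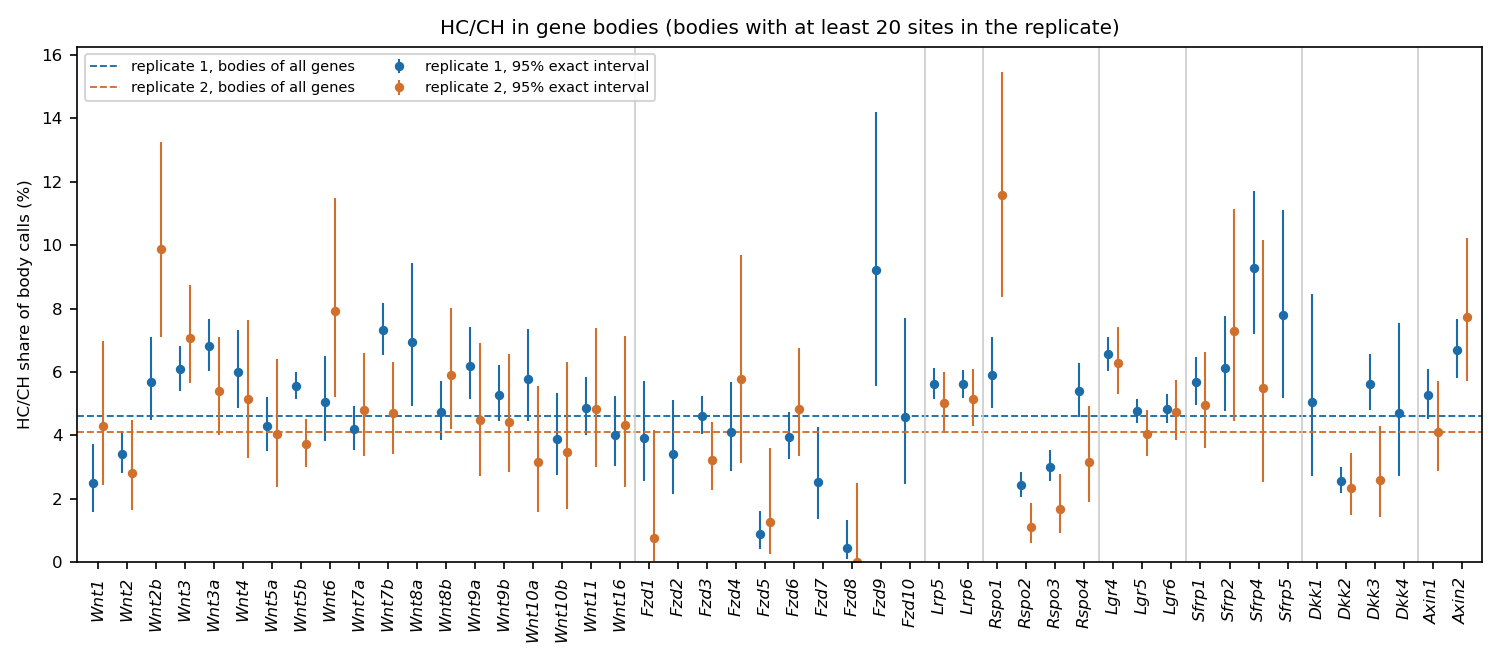
Share of body calls that were HC/CH (vertical axis, %) for each gene with at least 20 body sites, as 1 point per replicate with its exact 95% interval for counting error. Dashed lines give the pooled share over the bodies of all genes, 4.6% in replicate 1 and 4.12% in replicate 2. Axin2, Lgr4, Rspo1 and Wnt3 lie above the lines, and Dkk2, Fzd8, Rspo2 and Rspo3 below them, in both replicates.

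Because a body that is largely CC leaves few calls in which hmC could be read, the comparison was repeated on calls other than CC, a measure chosen after the data had been seen. On this scale 13 of 40 bodies lay above the other genes, beside 24.4% over all genes, and 3 of 40 below, beside 13.8%. The lower ones were Dkk2, Rspo2 and Rspo3. Axin2, Lgr4, Rspo1 and Wnt3 stayed among the higher ones and were joined by Sfrp2, Wnt1, Wnt3a, Wnt6, Wnt7b, Wnt8b, Wnt10a, Wnt10b and Wnt11. In Wnt1, 31.9% of modified calls in replicate 1 and 27.8% in replicate 2 were HC/CH, against 5.84% and 5.03% over all genes. The corresponding shares were 17.5% and 24.4% in Wnt10b, 15.1% and 20% in Wnt6, and 17.4% and 11.6% in Wnt10a. Fzd8, which had few modified calls, was at 5.36% and 0% and passed in neither direction in either replicate. The remaining bodies at 50% CC or more did not pass in both replicates: Fzd5 was at 12.2% and 7.14% (Fisher's exact test, adjusted p = 0.0422 and 0.597), Wnt5a at 13.3% and 8.29%, and Fzd1 at 12.2% and 2.22%. 4 more Frizzled bodies had a mean CC level over 50% but too few sites in replicate 2 to be tested, 6 to 18. In these the ratio of the HC/CH level to that of all modified states, which is not the pooled share given above, was 33.0% ± 0.501 in Fzd2, 43.4% ± 18.4 in Fzd7, 22.7% ± 8.68 in Fzd9 and 25.7% ± 1.01 in Fzd10 (SD, n = 2). A difference between the ligands and the receptors was not tested. The shares over all genes were not matched for CC level. Outside the set, 3 embryonic stem cell markers also had bodies at 50% CC or more in both replicates. Their ratios in replicates 1 and 2 were 18.1% and 10.3% in Nanog, 16.7% and 13.3% in Zfp42, and 7.04% and 34.5% in Pou5f1. Whether high values go with CC level rather than with this set was not tested.

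**Figure D5:**
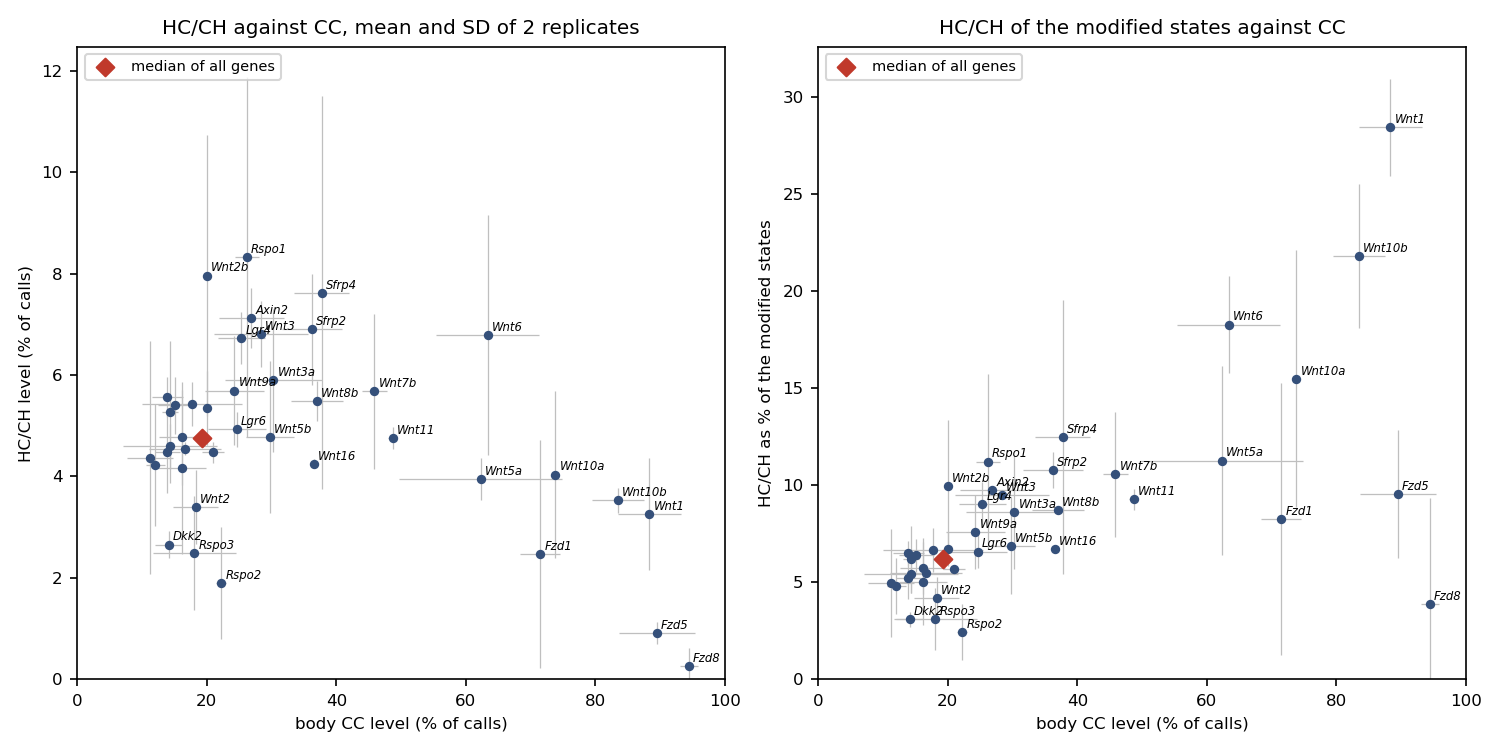
Body HC/CH level (left panel, % of all calls) and HC/CH as a percentage of the modified states (right panel) against body CC level (horizontal axes, %), with 1 point per gene as the mean of 2 replicates and bars for the SD. The diamond marks the median of all genes. Only bodies with at least 20 sites in both replicates are shown. Wnt1, Wnt6, Wnt10a and Wnt10b lie to the right and high in the right panel. Fzd8 lies to the right and low in the left panel, while in the right panel its value (3.86% ± 5.46) rests on few modified calls.

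Within single genes, promoter HC/CH was lower than body HC/CH in 2 of 34 by the adjusted test in both replicates, beside 8.48% over all genes. They were Wnt2b (1.05% of promoter and 5.68% of body calls in replicate 1, and 2.68% and 9.87% in replicate 2; Fisher's exact test, adjusted p = 0.00084 and 0.0428) and Wnt9a (1.68% and 6.20%, and 0% and 4.49%; Fisher's exact test, adjusted p = 0.0014 and 0.0366). Neither call held over the sites read in both replicates (0 of 29, beside 4.43% over all genes) or with promoters of 500 bp either side (0 of 20, beside 4.06%). These shares are of all calls, and both promoters were mostly CC, which leaves few calls in which hmC could be read. A comparison of promoter and body among calls other than CC is not given. At an unadjusted p under 0.05 the difference was seen in 17 of the 34 genes in replicate 1, in 5 in replicate 2 and in 5 in both, which adds Fzd4, Sfrp1 and Wnt6, beside 7017, 2630 and 2502 of 12054 genes. By the adjusted test in replicate 1 alone, with all 48 genes, 23 had less HC/CH in the promoter, beside 46.2% over all genes, and 4 had more, beside 5.18%. Promoter HC/CH was higher than in the body in 0 of 34 genes by the adjusted Fisher's exact test, beside 0.63% over all genes, and at an unadjusted p under 0.05 in 4 in replicate 1 and 0 in replicate 2, beside 706 and 586 of 12054.

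In the pooled calls asymmetric hmC lay slightly less often on the coding strand of the genes, a lean that was not tested. Of the HC, CH, HM and MH calls in the bodies, 48.4% in replicate 1 and 48.9% in replicate 2 had the hmC on the coding strand, against 49.7% and 49.5% over all genes. By the exact binomial test with Benjamini-Hochberg adjustment 0 of 40 genes differed between the strands in both replicates, beside 0.0% over all genes. Since this rule called 0 genes over the whole genome, it cannot show that the strands were equal. At an unadjusted p under 0.05 the template strand had more hmC in 4 genes in replicate 1 and in 1 in replicate 2, with 0 in both, beside 752, 513 and 28 of 14596 genes. The coding strand had more in 0 of the 40 in either replicate, beside 500 and 409 of 14596.

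HM/MH was called with different error in the replicates. Its median over the bodies was 4.08% in replicate 1 and 2.86% in replicate 2, against 4.31% and 2.72% over all genes. In the spike-in duplexes each site was taken to be in the state called most often there. On that basis 4.51% of MM was called HM/MH in replicate 1 and 0.467% in replicate 2. After correction with the call rates of each replicate the medians were 1.75% and 2.41%, against 1.70% and 2.35% over all genes, so that the pathway genes were near all genes on either scale while the order of the replicates turned. For HC/CH the correction moved the medians little, to 4.85% and 4.6%. At least 1 HH call was read at 4.0% of the pathway genes' sites in replicate 1 and at 1.10% in replicate 2, which was not counted over all genes. In the spike-in duplexes 0.709% and 0.0117% of MM was called HH.

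The same rules were applied to 47 other genes of the pathway, from the Wnt carrier Wls to the destruction complex and the TCF/LEF factors. Of these, 26 of 41 promoters were unmethylated, beside 55.1% over all genes, and 1 of 41 methylated, beside 12.4%, that of Cer1, a secreted antagonist. Body HC/CH was above the other genes in 18 of 44, beside 15.7%, among them Ctnnb1, which encodes β-catenin, the transcription factors Lef1, Tcf7 and Tcf7l1, and Znrf3, the ligase that removes Frizzled receptors. It was below in 3 of 44, beside 10.8%, those of Prickle2, Ror1 and Wls. Of the 44 bodies compared 0 were at 50% CC or more in both replicates, beside 5.89%, while that of Sost, with only 14 sites in replicate 2, was at 88.4% and 68.2% and was not compared. Further, 4 of 47 had a stretch of at least 5 kb, beside 4.76% (Apc2, Csnk1a1, Lef1 and Notum). The bodies differ in length and in calls, on which the test depends, and the part of that in these counts was not tested, nor was a difference between the lists.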

How the data were processed

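Genomic DNA of E14 mESCs was sequenced by SCoTCH-seq in 2 replicates of 1 group, and the labels name the replicates only by number. According to the methods and labels, the authors trimmed reads with cutadapt 4.6, aligned them to mm10 with BSBolt, removed duplicates with Picard 3.1.1, called each CpG site's state from both strands of a molecule, removed blacklisted regions and kept sites with at least 5 calls. The deposited counts are the calls per CpG state, and the deposited percent of each state at a site follows from them. Depth per site had a median of 10 calls in replicate 1 and 6 in replicate 2. The labels give a lower serum share in the medium than the methods do.

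From the counts, levels were averaged per region in Python 3.11.15 with NumPy 2.4.6, pandas 2.3.3, SciPy 1.17.1 and Matplotlib 3.10.9. Genes came from GENCODE vM21 and sequence and CpG positions from RefSeq's GRCm38.p6 genome. A promoter entered with at least 5 sites and a body with at least 20 in both replicates, and a call had to hold in each. Bins of a stretch with fewer than 2 sites were passed over. Fisher's exact and exact binomial tests were two-sided, adjusted by Benjamini-Hochberg over all genes and tested on simulated data. Exact intervals are Clopper-Pearson. Full values were given for the 5 highest and 5 lowest bodies in HC/CH, promoters under 80% CC in both replicates, called genes and the 5 longest stretches. The rule for the members uses gene symbols only, but members and lists were chosen with earlier results of these data known. Alternatives varied the calls per site, the sites shared by the replicates, the promoter and body limits, the gene starts, pooling, correction with spike-in call rates, the bins and each replicate.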

Additional observations from a re-analysis of the deposited data

How the results depend on the processing

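Of 62 alternatives, 40 left a count within 1.5 times or a median within 1 SD of the value reported. This compares counts, not shares or which genes were called. A count of 0 that stayed at 0 was taken as unchanged, as for the strands, where 0 of 14596 genes were called. With at least 10 calls per site only 1 promoter and 1 body could still be compared, and the counts were 0 for unmethylated promoters (75.3% of 324 over all genes), 0 for methylated promoters (1.54%), 0 for bodies with more HC/CH (7.99% of 1639) and 0 with less (6.16%), with a median HC/CH of 5.36% from that 1 body and 1 stretch of at least 5 kb among 6 genes read (Wnt10a, beside 8.1% over all genes). No value for promoter against body was obtained there. With sites read in both replicates only, 22 promoters were unmethylated (54.4% over all genes), 20 of them among the 24 reported, 1 was methylated (Dkk4; 12.4%), 4 bodies had more HC/CH (12.3%), of which 2 (Axin2 and Lgr4) were among those reported, 2 bodies had less (Rspo2 and Rspo3, without Dkk2 and Fzd8; 9.04%) and 0 promoters had less HC/CH than their body (4.43%). Over the starts of all transcripts 24 of 44 promoters were unmethylated, beside 38.6% over all genes, without Axin1 and Fzd6 and with Lgr5 and Wnt10b. Promoters of 500 bp either side gave 23 unmethylated (76.9%) and 0 methylated promoters of 26 (7.04%), and 0 of 20 with less HC/CH than the body (4.06%). Bodies from 5 kb after the start kept 3 of the 4 with more HC/CH, without Rspo1, and 3 of the 4 with less, without Fzd8 (17.6% and 12.1% over all genes). In that setting 34 bodies of the set were compared, and little of Fzd8 (5974 bp) lay beyond 5 kb. Correction with spike-in call rates moved the median HM/MH from 3.47% to 2.08%. Bins of 1 kb gave 8 long stretches (7.85% over all genes), and a CC share of at least 70% gave 3 (1.98%). Calls other than CC, chosen after seeing the data, gave 13 bodies with more HC/CH (24.4%). Leaving out replicate 1 or 2 gave 25 to 37 unmethylated promoters (57.6% and 56.3% over all genes), 6 to 18 bodies with more HC/CH (18.2% and 32.8%), 4 to 8 with less (12.6% and 21.0%), 2 to 23 promoters below (8.67% and 46.2%) and 0 to 4 above their body (1.61% and 5.18%), and 8 to 8 long stretches (8.69% and 7.89%), so the HC/CH shares over all genes moved as well. The higher numbers came from replicate 1 alone, which has more calls and in which all 48 genes could be compared. No paired analysis was possible because there is 1 group, with nothing to pair the replicates with.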
